A study of Mus musculus with 72 samples.

Results

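Cytochrome P450 genes of families 1, 2 and 3 were followed in RNA from liver nuclei of tumour-bearing and control mice. Members were taken by gene symbol, as every row of the count table whose symbol begins with Cyp1, Cyp2 or Cyp3, a subfamily letter and a number. This choice was made with earlier results of these data known. The rule found 58 of 20105 genes, and the 43 with a mean of at least 1 CPM (counts-per-million, on scaled library sizes) in any of the 18 groups are reported. The other 15 stayed below that level: Cyp1a1, Cyp2b13, Cyp2b19, Cyp2b23, Cyp2c65, Cyp2c66, Cyp2d12, Cyp2d34, Cyp2j11, Cyp2j12, Cyp2s1, Cyp2t4, Cyp2w1, Cyp3a16 and Cyp3a41a. At the edge of the rule, Cyp2j13 and Cyp1b1 had highest group means of 1.17 and 1.19 CPM, and Cyp1a1 reached 0.966 CPM. The reported genes held 13 members of the Cyp2c subfamily, 6 each of Cyp2d and Cyp3a, 5 of Cyp2j, 4 of Cyp2a, 2 of Cyp2b and 1 each of Cyp1a, Cyp1b, Cyp2e, Cyp2f, Cyp2g, Cyp2r and Cyp2u.

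Enzymes of these families are haem proteins of the endoplasmic reticulum that oxidise drugs, toxins, steroids, bile acids and fatty acids with electrons passed on by Por, the P450 reductase. In the liver their genes are switched by ligand-activated receptors: the aryl hydrocarbon receptor for family 1, the constitutive androstane receptor for Cyp2b and many Cyp2c genes, and the pregnane X receptor for Cyp3a. Several mouse Cyp2 and Cyp3 genes also differ between the sexes under the pulse pattern of growth hormone, and many are concentrated around the central vein of the liver lobule.

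The study set livers of mice with cachexia, a wasting of body mass, against livers of mice with tumours that do not cause it. All 36 animals, the controls included, carried CAG-Sun1/sfGFP and Albumin-Cre, so that hepatocyte nuclei bear a green tag and can be pulled out with beads. Each animal gave 1 library of bead-bound hepatocyte nuclei and 1 of whole liver nuclei, which makes 72 libraries in 18 groups of 4. BALB/c mice received PBS or C26 tumour cells and were taken before weight loss (pre-cachexia) or in cachexia, defined by more than 10% weight loss, and C57BL/6N mice received PBS or 8025 cells and were taken in cachexia. The tumours without cachexia were NC26 in BALB/c and MC38 in C57BL/6N mice, each with PBS animals of its own cohort. Tissue was taken at zeitgeber time 9. Albumin-Cre marks hepatocytes, and each tumour line is a single line, so its effect cannot be told apart from that line. The labels do not give the sex of the mice, and all 72 libraries held counts of 4 of 4 Y-linked genes (at least 4843 counts in a library).

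Hepatocyte libraries held 8.49M to 56.4M counts (median 26.1M) and whole liver libraries 12.2M to 30.3M (median 20.1M). Counts cover whole genes with introns, so they follow nuclear RNA, much of it unspliced, and not enzyme levels. Replicate libraries differed by more than counting error in all 108 pairs (chi-square per degree of freedom 22.7 to 372). Each library of a group came from another animal, so p-values measure the spread between these animals. In hepatocyte nuclei the 5 hepatocyte markers (Alb, Apoa1, Apob, Cps1 and Ttr) summed to 9954 to 14231 CPM in the C26 cohort's PBS animals. All 5 endothelial, all 6 Kupffer cell and all 5 stellate cell markers were lower in hepatocyte than in whole liver nuclei of PBS animals (median log2 differences -2.66, -2.81 and -2.55), as were 3 of 4 bile duct, 3 of 3 B cell, 3 of 3 T and NK cell and 3 of 3 tested neutrophil markers. Some reads cannot be placed with certainty. Sharing was measured in annotated transcripts alone, and introns, which the counts include, were not compared. Cyp2c40, for example, had 1803 transcript windows of 50 bases in a gene of 45742 counted bases. Of the 42 members matched to reference transcripts, 23 shared more than 10% of these windows with another gene. The median was 12%, and Cyp2c40 shared 70.2%. Other high shares were those of Cyp2c67 (52.8%), Cyp2c68 (43.3%), Cyp2a4 (38.8%), Cyp2a5 (38.6%), Cyp2d11 (37.2%) and Cyp2d10 (36.7%). Reads there may be uncertain in this way. These are shares of single windows, and the second read of a pair was not considered. Cyp3a13, Cyp2c70, Cyp2r1, Cyp2j9 and Cyp1b1 shared no transcript window, which leaves their introns unchecked. Strand use in counting is not given in the sources used here, so antisense and overlapping reads cannot be told apart.

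In hepatocyte nuclei of the 16 PBS animals, members were compared as CPM per kilobase of gene. Cyp2e1, which oxidises ethanol and acetaminophen, was highest at 129.5 ± 41.0 CPM per kb (SD, n = 16), followed by Cyp3a25 at 82.5 ± 40.2 and Cyp2d9, a testosterone hydroxylase, at 71.5 ± 26.1 CPM per kb. These levels overlapped, with Cyp2e1 between 64.9 and 193 and Cyp3a25 between 35.9 and 191 CPM per kb. Next came Cyp2d26 (49.9 CPM per kb), Cyp2d10 (35.6), Cyp3a11 (27.1), Cyp2j5 (20.2), Cyp2f2 (18.7), Cyp2a5 (17.7), Cyp2a12 (17.4) and Cyp2c29 (11.5). Cyp3a11, the main drug-inducible Cyp3a enzyme, varied most among these, from 2.65 to 124 CPM per kb in individual PBS animals. The lowest reported members were Cyp3a57 at 0.0139 and Cyp1b1 at 0.0106 CPM per kb. Together the 43 genes took 0.840% to 1.14% of all counts as group means.

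In C26 cachexia, P450 genes moved in both directions in hepatocyte nuclei. Cyp1a2, Cyp2u1, Cyp3a11, Cyp2c29, Cyp2a5 and Cyp2d9 fell, and Cyp2c39, Cyp2c70, Cyp2c38, Cyp2c68 and Cyp3a13 rose, each of these 5 over 4-fold. Of the 42 members tested, 8 were called higher and 13 lower (edgeR quasi-likelihood F test with adjusted p under 0.05 over all genes), so that 50% were called, where 22.2% of all tested genes were called (12.2% higher, 10% lower). In 18 members the values of both groups did not overlap, against 20.8% of all genes. The median log2 fold change was -0.04 for the members and 0.00028 for all genes. The summed level of all members was 8445 ± 1176 CPM (SD, n = 4) in PBS and 10448 ± 2449 CPM in cachexia, and the ranges overlapped (7096 to 9503 and 7306 to 13125 CPM). Leaving out single animals moved the 21 calls to between 16 and 20.

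**Figure D1:**
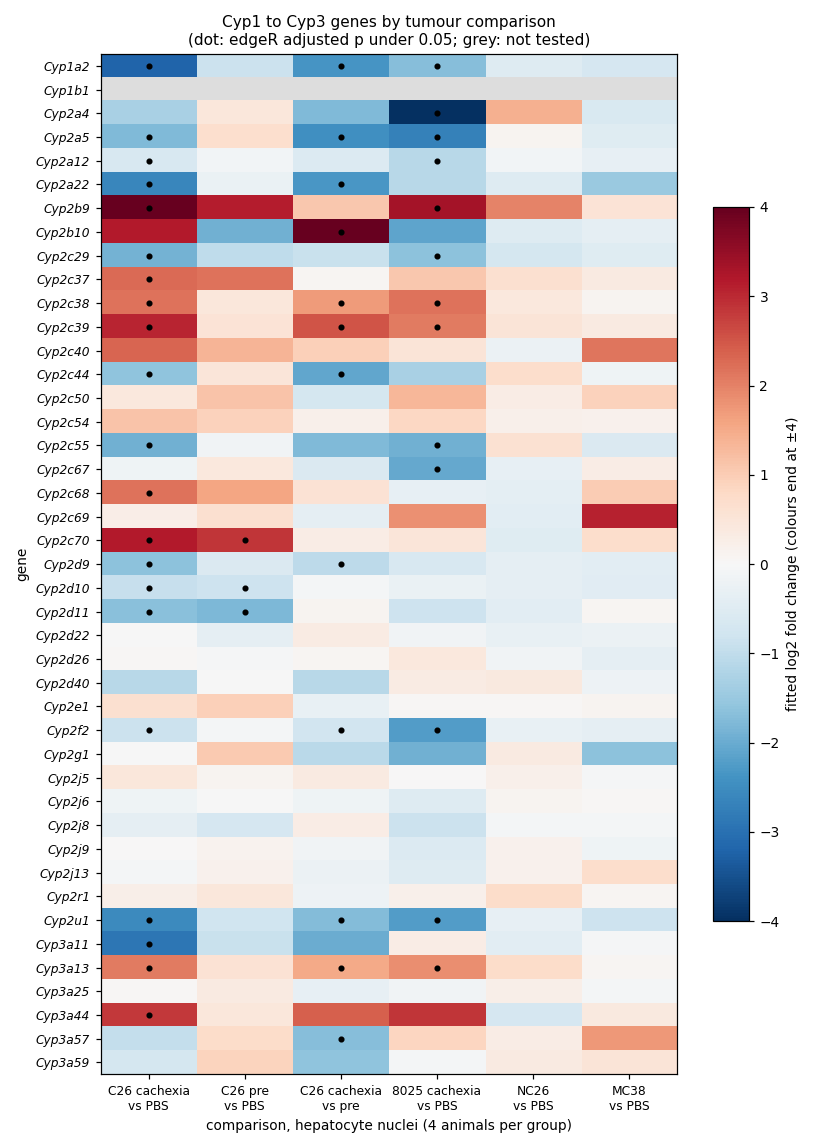
Log2 fold changes of the reported members (rows, by subfamily) in 6 comparisons of hepatocyte nuclei (columns), on a colour scale with red for higher and blue for lower; a dot marks an adjusted p under 0.05 and the grey row (Cyp1b1) was not tested. Dots fill 21 cells for C26 cachexia and 13 for 8025 cachexia, and no cell for NC26 or MC38 tumours.

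Cyp1a2 (chr9:57676937-57683655, minus strand, mm10), which metabolises caffeine and aromatic amines, fell furthest among members above 5 CPM. It stood at 89.4, 102, 56.2 and 48.0 CPM in PBS animals and at 6.03, 17.1, 5.11 and 3.64 CPM in cachectic animals 1 to 4. Every cachectic animal lay below every PBS animal. The fall was 9.27-fold (log2 fold change -3.21, SE 0.52, adjusted p = 3.4e-05, edgeR). Of the 3 genes listed as induced through the aryl hydrocarbon receptor, the 2 tested (Cyp1a1, below the reporting level, and Cyp1a2) were both lower, with a median log2 fold change of -2.63. Cyp1b1 was too low in hepatocyte nuclei to be tested.

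All called Cyp2a members fell. Cyp2a5 (chr7:26835339-26843264, plus strand), a coumarin hydroxylase, stood at 101, 153, 62.6 and 84.4 CPM in PBS animals and 31.6, 33.7, 37.4 and 15.1 CPM in cachectic animals, without overlap (log2 fold change -1.77, SE 0.51, adjusted p = 0.012, edgeR). Cyp2a12, a steroid hydroxylase, fell less, from 165 ± 23.6 to 105 ± 22.0 CPM, and its adjusted p of 0.014 became 0.052 without cachectic animal 3. Cyp2a22 fell from 18.7 to 3.13 CPM, with overlapping values. The Cyp2a sum went from 284 ± 70.6 CPM to 138 ± 28.3 CPM. Of the Cyp2b genes, Cyp2b10 is the classic target of phenobarbital. Cyp2b9 was at 0.419, 1.40, 0.600 and 1.23 CPM in PBS and 10.5, 0.355, 45.3 and 12.8 CPM in cachexia, so that 3 of 4 cachectic animals were high and animal 2 was below all controls. Its rise (log2 fold change 4.20, SE 1.20, adjusted p = 0.012) missed the threshold without cachectic animal 3 (3.06, adjusted p = 0.073). Cyp2b10 was at 6.19 ± 7.01 against 0.695 ± 0.358 CPM (adjusted p = 0.056, edgeR).

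The Cyp2c genes, which metabolise drugs and arachidonic acid, moved both ways on chromosome 19. Of 13 tested, 5 were called higher and 3 lower, with a median log2 fold change of 1.15. Cyp2c29 (chr19:39287085-39330713) fell, and its neighbours Cyp2c38 (chr19:39389556-39463075) and Cyp2c39 (chr19:39510822-39568529) rose. The 260 bases around each of these gene starts are printed to show how alike the neighbours that moved in opposite directions are (RefSeq promoters, GRCm38.p6, 250 bases before the start to 10 after; capitals mark AGGTCA, the core recognised by many nuclear receptors, and TATAAA).
Cyp2c29, chr19:39286835-39287094, plus strand: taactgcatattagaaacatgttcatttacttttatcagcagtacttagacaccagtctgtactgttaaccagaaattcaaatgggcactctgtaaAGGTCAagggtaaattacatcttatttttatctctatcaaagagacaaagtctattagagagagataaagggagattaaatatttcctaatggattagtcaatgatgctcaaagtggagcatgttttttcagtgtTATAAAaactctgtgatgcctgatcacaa
Cyp2c38, chr19:39463066-39463325, minus strand: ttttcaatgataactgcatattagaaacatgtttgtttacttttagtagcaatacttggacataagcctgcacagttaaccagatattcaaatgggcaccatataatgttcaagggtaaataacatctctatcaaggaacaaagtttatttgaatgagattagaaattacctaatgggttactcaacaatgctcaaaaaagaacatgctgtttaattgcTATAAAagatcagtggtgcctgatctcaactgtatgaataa
Cyp2c39, chr19:39510572-39510831, plus strand: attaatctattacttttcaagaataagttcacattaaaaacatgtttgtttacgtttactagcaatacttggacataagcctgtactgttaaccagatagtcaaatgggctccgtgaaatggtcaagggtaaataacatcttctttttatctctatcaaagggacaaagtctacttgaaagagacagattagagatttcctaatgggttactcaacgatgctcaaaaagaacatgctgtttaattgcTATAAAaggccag
In a global alignment 75.8% of the 260 bases were identical between Cyp2c29 and Cyp2c38, 75% between Cyp2c29 and Cyp2c39, and 79.6% between Cyp2c38 and Cyp2c39. Cyp2c29 alone of the 3 held AGGTCA, at -154 from the start. In C26 cachexia AGGTCA was also in members that rose (Cyp2b9, Cyp2c70 and Cyp3a44) and that fell (Cyp2f2 and Cyp3a11). All 3 held TATAAA, at -19 in Cyp2c29, -31 in Cyp2c38 and -3 in Cyp2c39. The windows are therefore offset from each other, and the identities are those of the windows as cut.

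Cyp2c29 stood at 417, 613, 1221 and 575 CPM in PBS animals and at 258, 84.2, 95.9 and 318 CPM in cachectic animals. The groups did not overlap (log2 fold change -1.90, SE 0.49, adjusted p = 0.0056, edgeR). Cyp2c38 went the other way, from 59.1, 75.3, 58.5 and 73.8 CPM to 387, 109, 297 and 400.3 CPM, a 4.47-fold rise (adjusted p = 0.0037). Cyp2c39, which hydroxylates retinoic acid, was tightly set at 88.0, 93.0, 80.2 and 81.2 CPM in PBS and reached 694, 337, 748 and 1063 CPM in cachexia. That is the strongest Cyp2c call (log2 fold change 3.05, SE 0.48, adjusted p = 2.9e-05). Cyp2c70 (chr19:40153361-40187286, minus strand), the enzyme that makes muricholic acids in mouse bile, rose from 122, 101, 83.3 and 156 CPM to 1439, 898, 529 and 1328 CPM (log2 fold change 3.18, SE 0.82, adjusted p = 0.0054). Every cachectic animal was above every PBS animal of the C26 cohort in each of these 3 rising genes. Cyp2c68 rose from 103 ± 69.4 to 464 ± 150 CPM (adjusted p = 0.023), a call lost without cachectic animal 1 or PBS animal 1, 2 or 3 (adjusted p 0.055 to 0.078). Cyp2c37 (16.2 against 3.38 CPM, adjusted p = 0.043) and Cyp2c44 (6.94 against 20.8 CPM, lower, adjusted p = 0.027) each lost the call in 5 of 8 refits without an animal. Cyp2c55 fell at low level, from 1.42 to 0.373 CPM (adjusted p = 0.022), and lost the call in 3 of 8 refits. Cyp2c40, Cyp2c50, Cyp2c54, Cyp2c67 and Cyp2c69 did not pass the test, with Cyp2c40 nearest (log2 fold change 2.32, adjusted p = 0.076). The Cyp2c sum was 1466 ± 467 CPM in PBS and 3174 ± 1086 CPM in cachexia.

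**Figure D2:**
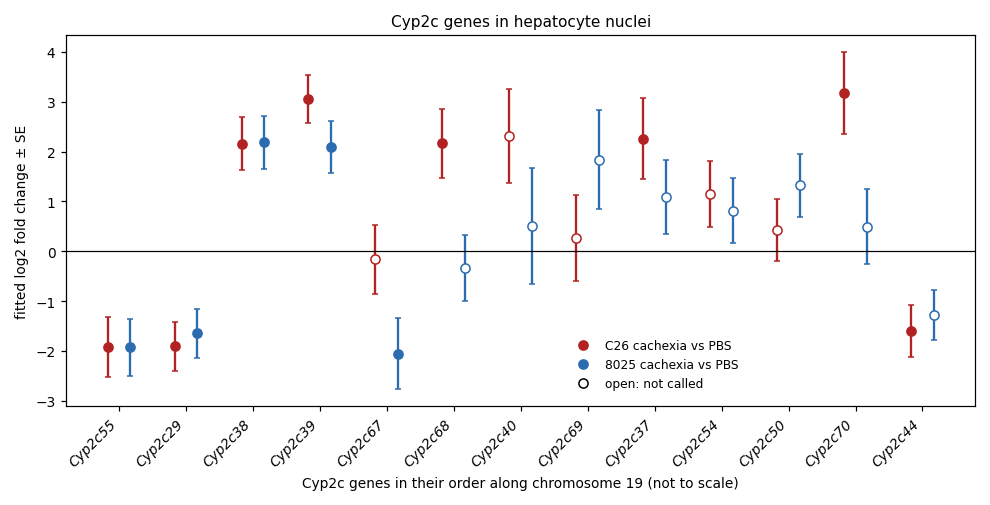
Log2 fold change ± SE of the 13 Cyp2c genes in hepatocyte nuclei, in their order along chromosome 19 (x axis, not to scale), for C26 and 8025 cachexia against PBS. Cyp2c38 and Cyp2c39 lie above 0 and Cyp2c29 and Cyp2c55 below 0 in both models, and Cyp2c70 and Cyp2c68 are called in C26 alone.

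Of 6 Cyp2d genes, 3 fell and none rose. Cyp2d9 (chr15:82452377-82456827, plus strand) went from 491, 289, 373 and 244 CPM to 154, 139, 93.3 and 64.0 CPM without overlap (log2 fold change -1.64, SE 0.30, adjusted p = 1.8e-04, edgeR). Cyp2d10 fell from 174 to 92.3 CPM (adjusted p = 0.0031) and Cyp2d11 from 0.994 to 0.297 CPM (adjusted p = 0.014, or 0.052 without PBS animal 1). The Cyp2d sum was 832 ± 229 CPM in PBS and 504 ± 92.8 CPM in cachexia. Cyp2d22 and Cyp2d26 were near their control levels, with log2 fold changes of -0.02 and 0.04.

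Members outside these large subfamilies split as well. Cyp2u1 (chr3:131290491-131303227), a fatty acid hydroxylase, was at 55.3, 60.6, 52.6 and 32.8 CPM in PBS and 6.99, 12.1, 6.63 and 8.63 CPM in cachexia. It fell 5.85-fold without overlap (log2 fold change -2.55, SE 0.39, adjusted p = 2.0e-05). Cyp2f2, known for bioactivation of naphthalene, fell from 261, 252, 202 and 210.1 CPM to 159, 162, 65.8 and 125 CPM (log2 fold change -0.86, SE 0.24, adjusted p = 0.0097). Cyp2e1 was at 981, 1521, 865 and 1780 CPM in PBS and 3072, 1494, 2099 and 1430.1 CPM in cachexia. These values overlapped and did not pass the test (log2 fold change 0.65, adjusted p = 0.19). None of the 5 Cyp2j genes, epoxygenases of arachidonic acid, was called; Cyp2j5 had a log2 fold change of 0.47 (adjusted p = 0.26). The vitamin D 25-hydroxylase Cyp2r1 was at 11.0 ± 1.96 against 9.30 ± 2.01 CPM (adjusted p = 0.42).

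Within Cyp3a, the main steroid and drug hydroxylases, Cyp3a13 (chr5:137892933-137921619) rose and Cyp3a11 (chr5:145854607-145879854) fell. Their promoters are printed because these members of 1 subfamily went in opposite directions (capitals as above).
Cyp3a11, chr5:145879845-145880104, minus strand: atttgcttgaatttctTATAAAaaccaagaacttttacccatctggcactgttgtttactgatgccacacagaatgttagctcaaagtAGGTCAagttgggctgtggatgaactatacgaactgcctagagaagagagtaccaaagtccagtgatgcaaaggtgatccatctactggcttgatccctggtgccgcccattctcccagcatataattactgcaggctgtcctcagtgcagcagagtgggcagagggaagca
Cyp3a13, chr5:137921610-137921869, minus strand: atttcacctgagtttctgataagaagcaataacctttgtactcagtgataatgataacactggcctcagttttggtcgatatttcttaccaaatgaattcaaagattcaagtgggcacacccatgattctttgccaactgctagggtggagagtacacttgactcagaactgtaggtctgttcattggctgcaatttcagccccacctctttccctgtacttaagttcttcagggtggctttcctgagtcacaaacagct
AGGTCA stands at -162 in Cyp3a11, neither motif is in the Cyp3a13 window, and 63.5% of the 260 bases were identical. Cyp3a13 was at 193, 209.9, 249 and 164 CPM in PBS and 903, 489.7, 1018 and 1074 CPM in cachexia. It rose 4.27-fold without overlap, with the lowest adjusted p of all members (log2 fold change 2.09, SE 0.31, adjusted p = 1.0e-05, edgeR). Cyp3a11 was at 792, 413, 1361 and 440.1 CPM in PBS and 214, 21.3, 33.4 and 134 CPM in cachexia, again without overlap (log2 fold change -2.90, SE 0.88, adjusted p = 0.017). That call was lost without cachectic animal 3 (-2.63, adjusted p = 0.059) or PBS animal 3 (-2.47, adjusted p = 0.054). The call of Cyp3a44 rested on cachectic animal 4 at 29.0 CPM, beside 2.80, 0.290 and 2.52 CPM in the others: its log2 fold change of 2.83 became 0.58 without that animal (adjusted p = 0.63). Cyp3a25 did not differ detectably, at 2540 ± 629 against 2446 ± 581 CPM (log2 fold change 0.05, SE 0.45). The Cyp3a sum was accordingly 3583 ± 924 CPM in PBS and 3630 ± 958 CPM in cachexia.

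**Figure D3:**
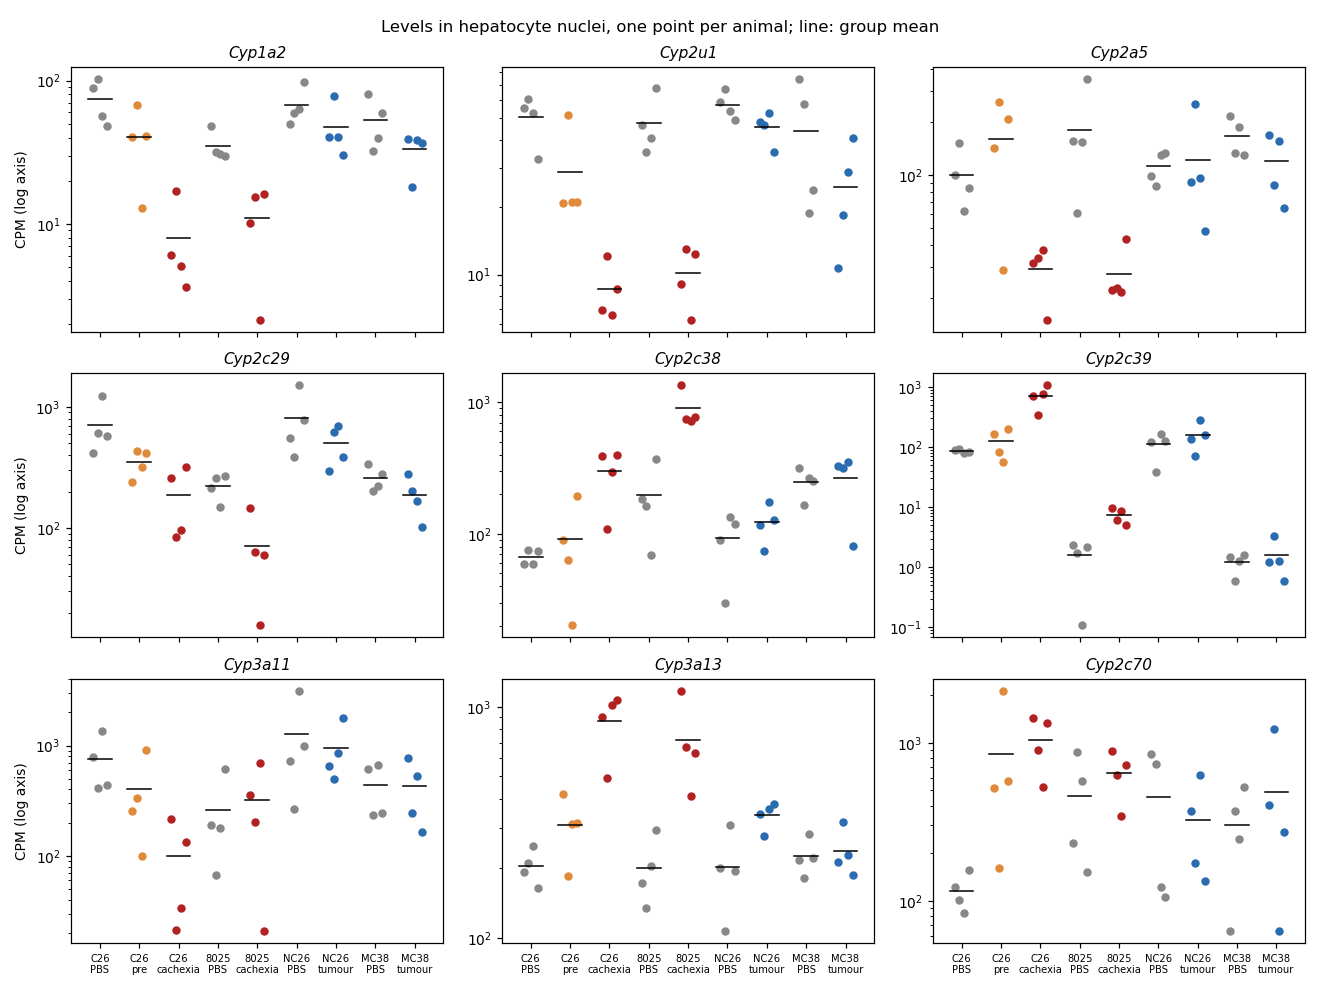
CPM (log axis) of 9 members in hepatocyte nuclei, 1 point per animal, in the 9 groups. Cyp1a2 and Cyp2u1 are lowest in both cachexia groups, Cyp3a13 is highest in both, and Cyp2c39 lies near 1 CPM in C57BL/6N controls and near 100 CPM in BALB/c controls.

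Members were also grouped by the receptor or pattern that textbooks give for them, beside 22.2% of all genes called in C26 and 29.3% in 8025 cachexia. Of 8 tested genes induced through the constitutive androstane receptor, 2 rose (Cyp2b9 and Cyp2c37) and 2 fell (Cyp2c29 and Cyp2c55), with a median log2 fold change of 0.79. Of 6 tested pregnane X receptor targets, 2 rose (Cyp3a13 and Cyp3a44) and 1 fell (Cyp3a11), with a median of -0.33. Of 8 tested genes that are higher in female mouse liver, 2 rose (Cyp2b9 and Cyp3a44) and none fell; the median was 1.29. The Cyp3a44 call rested on a single animal as given above, and Cyp2b9 and Cyp3a44 are each counted in 2 of these lists. In 8025 cachexia the same lists had 1 higher and 2 lower, 1 and 0, and 1 and 1, with medians of 0.61, 0.57 and 0.46. Of the 2 tested aryl hydrocarbon receptor targets, 0 rose and 1 fell there, with a median of -1.19. With 2 to 8 tested genes a list, these counts are descriptions, and that of the female-predominant genes, 2 of 8 in each model, is near the share of all genes called.

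In 8025 cachexia, in C57BL/6N mice, hepatocyte P450 genes also moved both ways. Cyp2f2, Cyp2a5, Cyp2u1, Cyp2a12, Cyp1a2 and Cyp2c29 fell, and Cyp3a13, Cyp2c38, Cyp2c39 and Cyp2b9 rose. Of 42 members tested, 4 were called higher and 9 lower, where 16.2% and 13.1% of all genes were called in those directions and 29.3% in either. That share of members, 31.0%, is near the background. In 13 members the groups did not overlap, against 28.1% of all genes, and the median log2 fold change was -0.22. The summed level was 8095 ± 1223 CPM in PBS and 8310 ± 2668 CPM in cachexia.

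Cyp2f2 (chr7:27119955-27133660) had the lowest adjusted p of any member. It stood at 265, 310.3, 187 and 296 CPM in PBS and 86.8, 47.2, 28.9 and 61.7 CPM in cachexia (log2 fold change -2.24, SE 0.25, adjusted p = 1.0e-07, edgeR). Cyp2u1 went from 46.3, 35.3, 40.7 and 67.7 CPM to 9.09, 13.1, 6.30 and 12.4 CPM (log2 fold change -2.22, SE 0.39, adjusted p = 7.0e-05). Neither gene had overlapping groups. Cyp1a2 fell from 48.5, 31.5, 30.9 and 29.8 CPM to 10.1, 15.3, 2.15 and 16.2 CPM (log2 fold change -1.70, SE 0.49, adjusted p = 0.0095). Cyp2a5 fell from 155, 61.0, 155 and 350.0 CPM to 22.3, 22.7, 21.6 and 43.3 CPM (log2 fold change -2.71, SE 0.53, adjusted p = 2.5e-04). Both were low in every cachectic animal. The Cyp2a sum went from 292 ± 147 to 76.0 ± 18.9 CPM. Cyp2a4, a testosterone hydroxylase that resembles Cyp2a5 closely in sequence, had 0, 1, 160 and 107 counts in PBS and 0, 0, 4 and 1 in cachexia; its call (adjusted p = 3.1e-04) rests on PBS animals 3 and 4, and the groups overlapped. The promoters of Cyp2a4 and Cyp2a5 were 98.1% identical.

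In the Cyp2c cluster, Cyp2c29 fell from 216, 259, 148 and 271 CPM to 146, 63.1, 15.7 and 60.4 CPM (log2 fold change -1.65, SE 0.49, adjusted p = 0.011, edgeR). Cyp2c38 rose from 185, 162, 69.6 and 369.7 CPM to 1345, 740.5, 721 and 773 CPM (log2 fold change 2.19, SE 0.53, adjusted p = 0.0024). Cyp2c39 rose from 2.33, 1.73, 0.108 and 2.18 CPM to 9.76, 6.00, 8.59 and 5.12 CPM (log2 fold change 2.09, SE 0.53, adjusted p = 0.0032). None of these 3 overlapped between groups, and Cyp2c39 remained below 10 CPM in this strain. Cyp2c67 fell from 416 ± 402 to 100.0 ± 19.7 CPM, but its log2 fold change of -2.06 became -1.14 without PBS animal 2, which had 1006 CPM (adjusted p = 0.25). Cyp2c55 fell from 3.42 to 0.873 CPM (adjusted p = 0.011, or 0.086 without PBS animal 4). Cyp2c44 missed the threshold at 76.5 ± 16.1 against 186 ± 46.2 CPM (adjusted p = 0.054), with no overlap.

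Cyp3a13 rose in this model too, from 172, 134, 205 and 292 CPM to 1173, 670.1, 412 and 629.9 CPM (log2 fold change 1.85, SE 0.30, adjusted p = 3.3e-05, edgeR). Every cachectic animal was above every PBS animal. Cyp3a11, by contrast, spread from 20.8 to 699.8 CPM in cachexia and from 67.0 to 609 CPM in PBS (log2 fold change 0.29, SE 0.82, adjusted p = 0.82). Cyp2b9 rose from 1.50 ± 1.36 to 16.6 ± 10.8 CPM (adjusted p = 0.027), and that call was lost in 4 of 8 refits without an animal. No Cyp2d member was called, and Cyp2e1, Cyp2j5 and Cyp3a25 had log2 fold changes of 0.06, 0.01 and -0.16.

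Set side by side, 7 members were called lower in both cachexia models (Cyp1a2, Cyp2a12, Cyp2a5, Cyp2c29, Cyp2c55, Cyp2f2 and Cyp2u1), 4 higher in both (Cyp2b9, Cyp2c38, Cyp2c39 and Cyp3a13) and none in opposite directions. These 11 are 52.4% of the 21 C26 calls and 84.6% of the 13 8025 calls, and the models have separate controls and strains. Of the 42 tested members 26.2% were called the same way in both, where 12.6% of all 13274 tested genes were and 11 genes (0.0829%) were called in opposite directions. Over all genes, calls shared in the same direction were 56.5% of the C26 calls and 42.9% of the 8025 calls. The member share of C26 calls is thus near that of all genes. The calls of Cyp1a2, Cyp2a5, Cyp2c29, Cyp2c38, Cyp2c39, Cyp2f2, Cyp2u1 and Cyp3a13 were kept in both models when any single animal was left out. Another 10 members were called in C26 alone and 2 in 8025 alone. A test of the difference between the effects called only Cyp2f2, where 0.957% of all genes were called: its fall was smaller in C26 by 1.38 on the log2 scale (SE 0.34, adjusted p = 0.038, edgeR), a call lost in 11 of 16 refits without an animal and when only these cohorts entered the fit (adjusted p = 0.14). Members called in C26 alone are therefore not shown to differ between the models. The largest of those differences were for Cyp3a11 (-3.19, SE 1.18, adjusted p = 0.20) and Cyp2c70 (2.69, SE 1.08, adjusted p = 0.24).

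Markers of other cells moved in the same hepatocyte libraries. Kupffer cell markers were called higher for 4 of 6 genes in C26 cachexia, 5 of 6 in pre-cachexia and 5 of 6 in 8025 cachexia. Their summed level was 36.8 to 61.4 CPM in C26 PBS, 65.2 to 79.0 CPM in pre-cachexia, 58.9 to 92.1 CPM in C26 cachexia, 36.8 to 43.5 CPM in 8025 PBS and 89.4 to 116 CPM in 8025 cachexia. Bile duct markers were higher for 1 of 4 genes in C26 and 3 of 4 in 8025 cachexia, neutrophil markers for the single gene tested in both, endothelial markers for 1 of 5 in both, and stellate cell markers for 1 of 5 in C26 and 2 of 5, with 1 lower, in 8025. No B cell marker was called, and 1 of 2 tested T and NK cell markers was higher in 8025 and none in C26. Of the hepatocyte markers, 1 was higher and 1 lower in C26 cachexia and none was called in 8025. They summed to 12434 to 22787 CPM in C26 cachexia, and to 10943 to 11946 CPM in PBS and 8101 to 11723 CPM in cachexia of the 8025 cohort. Endothelial markers summed to 148 to 234 CPM in C26 PBS and 232 to 337 CPM in C26 cachexia, and to 94.0 to 157 and 132 to 213 CPM in the 8025 cohort. Bile duct markers summed to 4.70 to 6.94 and 8.07 to 12.6 CPM in C26, and 3.02 to 5.39 and 8.63 to 36.2 CPM in 8025. Stellate cell markers summed to 67.9 to 90.7 and 64.7 to 85.0 CPM in C26, and 73.7 to 99.6 and 37.0 to 57.1 CPM in 8025. Neutrophil markers reached at most 2.28 CPM in C26 cachexia and 9.65 CPM in 8025 cachexia. Among them Retnlg was at 0 in PBS animals of both cohorts, and S100a8 and S100a9 in those of C26. The part of other cells in the P450 results was not tested.

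Before weight loss, Cyp2c70 was higher and Cyp2d10 and Cyp2d11 lower than in PBS animals. Of 42 members in hepatocyte nuclei of C26 pre-cachexia animals, 1 was called higher and 2 lower against PBS, where 7.72% of all genes were called (4.78% higher, 2.94% lower). That share of members, 7.14%, is near the background. Cyp2c70 stood at 517, 161, 2134 and 577 CPM, all above the PBS animals of the C26 cohort (83.3 to 156 CPM). PBS animals of the NC26 cohort, of the same strain, had a mean of 454 CPM (SD 395). Against the PBS animals of its own cohort, Cyp2c70 rose by 2.87 on the log2 scale (SE 0.81, adjusted p = 0.026, edgeR). Without pre-cachexia animal 3 the value was 1.85 and the call was lost (adjusted p = 0.11), as it was without PBS animal 2, 3 or 4. Cyp2d10 fell from 174 to 97.9 CPM (adjusted p = 0.019) and Cyp2d11 from 0.994 to 0.283 CPM (adjusted p = 0.025), and each lost its call in 3 of 8 refits without an animal. With only the C26 cohort in the fit, 1 member was called higher and 0 lower. Cyp1a2, at 40.2, 67.5, 13.0 and 41.3 CPM, and Cyp2u1, at 21.0, 51.2, 21.0 and 21.1 CPM, had means between those of PBS and cachectic animals. In the same libraries the 5 hepatocyte markers summed to 6439 to 9068 CPM, below every PBS animal (9954 to 14231 CPM), with 1 of 5 called lower. Of the other markers, 5 of 6 Kupffer cell and 1 of 2 tested T and NK cell markers were called higher. Their part in the pre-cachexia results was not tested.

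Cachectic and pre-cachexia animals were also set against each other; this comparison shares its cachectic animals with the one against PBS. Of 42 members, 4 were higher and 8 lower in cachexia, where 9.09% of all genes were called (4.81% higher, 4.27% lower). Cyp2c39 was 5.70-fold higher and Cyp3a13 2.84-fold higher, without overlap (adjusted p = 7.5e-04 and 0.0014). Cyp2b10 was higher too, at 1.40, 6.67, 0.756 and 15.9 CPM against at most 0.315 CPM in pre-cachexia (log2 fold change 5.09, SE 1.37, adjusted p = 0.016). That call was lost without cachectic animal 4 or pre-cachexia animal 2. Cyp2c38 was 3.24-fold higher, but lost its call in 6 of 8 refits. The 8 lower members were Cyp1a2, Cyp2a22, Cyp2a5, Cyp2c44, Cyp2d9, Cyp2f2, Cyp2u1 and Cyp3a57. Cyp1a2 was 5.10-fold, Cyp2a5 5.44-fold and Cyp2u1 3.33-fold lower (adjusted p = 0.0024, 0.0025 and 0.0032). The 12 calls fell to 5 without cachectic animal 4 or without pre-cachexia animal 2, and to 6 when only the C26 cohort entered the fit.

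Tumours without cachexia left no P450 gene past the threshold. With NC26 tumours 0 of 42 members were called, against 0.324% of all genes (0.316% higher, 0.00753% lower), and 0 had groups without overlap, against 7.73% of all genes. Of the 42 members 2 had an unadjusted p under 0.05, where 1579 of all 13274 tested genes did, and DESeq2 called 1 member. That gene was Cyp2r1, at 22.7, 12.6, 15.2 and 24.3 CPM with tumours and 12.3, 9.26, 9.57 and 13.6 CPM with PBS (log2 fold change 0.74, SE 0.19, adjusted p = 0.11 in edgeR and 0.036 in DESeq2). Its values overlapped, and edgeR called it without tumour animal 2 (adjusted p = 0.027). With MC38 tumours 0 members and 0 of all genes were called by edgeR, and DESeq2 called 0 members. An unadjusted p under 0.05 was found in 4 of 42 members (Cyp2c69, Cyp2d10, Cyp2u1 and Cyp3a57) and in 572 of all 13274 tested genes. In 2 members the MC38 groups did not overlap, against 2.26% of all genes.

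The effect of each cachectic tumour was then tested against that of the non-cachectic tumour in the same strain. For C26 against NC26, 1 member was higher and 2 were lower, where 1.89% of all genes were called (0.934% higher, 0.957% lower). The difference on the log2 scale was 2.55 for Cyp2c39 (SE 0.64, adjusted p = 0.031, edgeR), -2.70 for Cyp1a2 (SE 0.68, adjusted p = 0.031) and -2.22 for Cyp2u1 (SE 0.53, adjusted p = 0.021). With NC26 tumours alone Cyp1a2 was at 40.2, 78.7, 40.5 and 30.3 CPM beside 49.7, 59.8, 62.9 and 98.1 CPM in PBS, and Cyp2u1 at 47.8, 46.6, 52.3 and 35.2 CPM beside 58.6, 67.0, 53.9 and 49.1 CPM. These values overlapped in both genes. Leaving out single animals ended the call in 11 of 16 refits for Cyp2c39, 8 of 16 for Cyp1a2 and 1 of 16 for Cyp2u1 (adjusted p = 0.051 without cachectic animal 3).

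For 8025 against MC38, 1 member was higher and 2 were lower, where 7.21% of all genes were called (4.19% higher, 3.02% lower). That share of members, 7.14%, is near the background. The difference on the log2 scale was 1.77 for Cyp3a13 (SE 0.42, adjusted p = 0.0091, edgeR) and -1.87 for Cyp2f2 (SE 0.34, adjusted p = 8.9e-04). Both calls were kept in all 16 refits without an animal. Cyp2a5 differed by -2.23 with an adjusted p that rounds to 0.05, and lost the call in 13 of 16 refits. Cyp3a13 was at 214, 319, 229 and 188 CPM with MC38 tumours and 218, 182, 281 and 221 CPM in their PBS animals. Cyp2f2 was at 211, 220.0, 168 and 216 CPM beside 246, 243, 261 and 296 CPM. These MC38 animals lay below their controls, but the difference did not pass the test (log2 fold change -0.36, SE 0.24).

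The strains differed in P450 genes without any tumour. In hepatocyte nuclei of 8 BALB/c and 8 C57BL/6N PBS animals, 13 of 42 members were higher in BALB/c and 10 lower, where 41.2% of all genes were called (20.5% higher, 20.7% lower). Strain and cohort cannot be told apart here, since each strain had its own 2 cohorts. The processing notes name mm10 as the genome build for both strains. How differences in strain sequence affected the placing of reads was not tested. Cyp2c39 differed most: the BALB/c animals ranged from 38.8 to 165 CPM and the C57BL/6N animals from 0.108 to 2.33 CPM (67.6-fold, adjusted p = 3.9e-13, edgeR). Cyp2a22 was higher in BALB/c, at 17.7 ± 11.2 against 1.22 ± 1.05 CPM (adjusted p = 2.6e-07). Cyp2c29, Cyp2d40 and Cyp3a59 were 3.14-fold, 2.95-fold and 2.98-fold higher. Cyp2c44 was lower in BALB/c, at 21.5 ± 8.25 against 186 ± 58.9 CPM (adjusted p = 1.2e-07). Cyp2c37 was 6.18-fold, Cyp2c38 2.81-fold and Cyp2r1 2.04-fold lower. Cyp2c38 was thus higher and Cyp2c39 lower in C57BL/6N controls, and both rose in each cachexia model. In the same libraries 4 of 5 endothelial markers were higher in BALB/c (median log2 difference 0.60), as were 4 of 5 stellate cell markers, with 1 lower (median 1.58). Endothelial markers summed to 94.7 to 234 CPM in BALB/c and 58.5 to 157 CPM in C57BL/6N PBS animals, and stellate cell markers to 54.8 to 90.7 and 51.2 to 99.6 CPM. Hepatocyte markers were higher for 1 of 5, and Kupffer cell and bile duct markers for 1 with 1 lower in each list. Their part in the strain results was not tested. Controls of a single strain also varied, as Cyp2c70 shows at 856, 731, 122 and 106 CPM in the NC26 cohort's PBS animals.

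**Figure D4:**
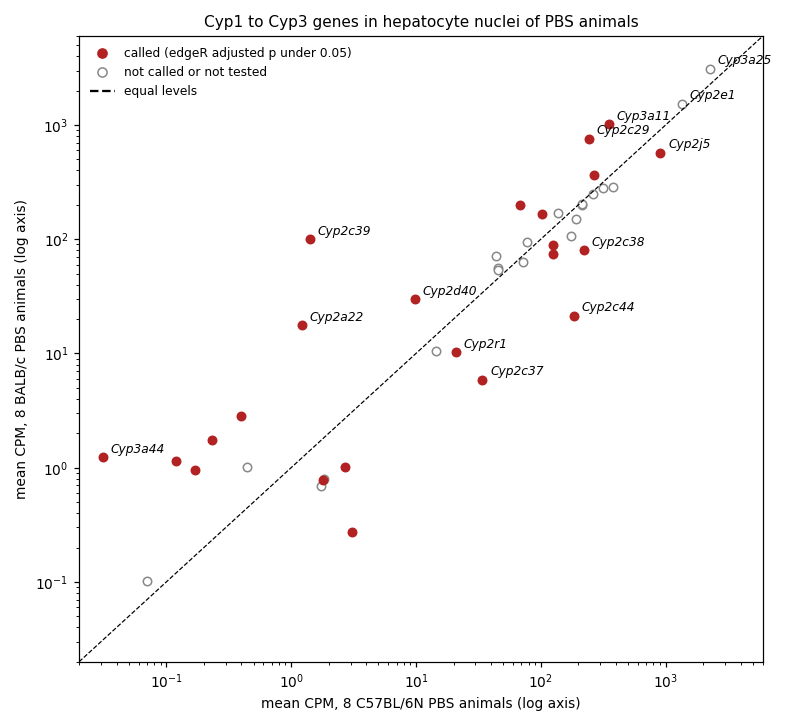
Mean CPM of each reported member in hepatocyte nuclei of PBS animals, BALB/c (y axis) against C57BL/6N (x axis), both axes log, with the line of equal levels. Cyp2c39 and Cyp2a22 lie far above the line, and Cyp2c44 and Cyp2c37 below it.

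Whole liver nuclei of the same animals were tested in the same way. In bulk nuclei, fewer cells of a type and less RNA per cell cannot be told apart. In C26 cachexia 8 of 43 members were higher and 11 lower, where 22.1% of all genes were called (11.8% higher, 10.3% lower), and 18 members were called in the same direction in both fractions. Cyp1a2 was at 68.9, 87.4, 58.2 and 61.1 CPM in PBS and 11.0, 14.7, 6.56 and 5.91 CPM in cachexia (log2 fold change -2.83, adjusted p = 1.5e-05, edgeR). Cyp3a11 fell by 3.19 (adjusted p = 0.0041), Cyp2c29 by 2.20 and Cyp2u1 by 2.42, while Cyp3a13 rose by 2.02, Cyp2c39 by 2.90 and Cyp2c70 by 3.07 on the log2 scale. Cyp2c40 was called in whole liver alone (2.24, adjusted p = 0.031, edgeR), and Cyp2c37, Cyp2c55 and Cyp2d11 in hepatocyte nuclei alone. The difference between fractions was not tested for these genes. Fractions come from the same animals, so they are not independent of each other. The share of all genes called alike in both fractions is not given here. The count of 18 therefore describes these members alone and does not set them apart from other genes.

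In 8025 cachexia 5 of 43 members were higher and 15 lower in whole liver nuclei, where 36.6% of all genes were called (18.7% higher, 17.9% lower), and 12 were called in the same direction in hepatocyte nuclei. The count of 12 likewise has no share of all genes beside it, and it describes these members alone. Cyp2f2 had the lowest adjusted p again (log2 fold change -2.28, adjusted p = 5.0e-09, edgeR). The epoxygenases Cyp2j6 (-0.83), Cyp2j8 (-1.23) and Cyp2j9 (-0.79) fell in whole liver, as did Cyp2c44 (-1.47, adjusted p = 0.012, edgeR). None of these was called in hepatocyte nuclei, but the difference between fractions was not tested. With only the 8025 cohort fitted, hepatocyte nuclei had Cyp2c44 (-1.27), Cyp2j6 (-0.51) and Cyp2j8 (-0.85) called lower (adjusted p 0.0022 to 0.042). Cyp2j9 was not called there. Hepatocyte markers in whole liver summed to 11098 to 17574 CPM in PBS and 7346 to 11548 CPM in cachexia. Their part in these falls was not tested. Cyp2c39 was called in hepatocyte nuclei but not in whole liver (0.75, adjusted p = 0.35), where PBS animal 1 stood at 12.1 CPM beside 2.33 CPM in its hepatocyte library. Cyp1b1, a family 1 enzyme of non-parenchymal cells, was at 1.12, 0.500, 0.928 and 0.377 CPM in cachexia and 0.327, 0.0780, 0.142 and 0.305 CPM in PBS, without overlap (log2 fold change 1.76, SE 0.51, adjusted p = 0.0076). These Cyp1b1 levels stand for 5 to 32 counts in cachexia and 1 to 5 in PBS. Kupffer cell markers were higher for 6 of 6 genes in the same comparison, and their part in the Cyp1b1 result was not tested. Pre-cachexia whole liver had 1 member higher (Cyp2c70) and 1 lower (Cyp2d10), where 12.8% of all genes were called (8.72% higher, 4.04% lower). Against pre-cachexia, cachectic whole livers had 5 members higher and 7 lower, where 11.6% of all genes were called (4.68% higher, 6.94% lower). No member was called with NC26 (0.728% of all genes) or MC38 tumours (0 genes) by edgeR or DESeq2. An unadjusted p under 0.05 was found in 2 of 43 members with NC26 and in 5 with MC38 tumours. Of all 13738 tested genes, 1679 and 790 had such a p.

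Fractions of PBS animals were first compared in a fit that did not pair the libraries of an animal. There 5 members were higher in hepatocyte than whole liver nuclei and 1 lower, where 50.9% of all genes were called (26.4% higher, 24.5% lower). The 5 were all Cyp2d genes (Cyp2d9, Cyp2d10, Cyp2d11, Cyp2d22 and Cyp2d26), 1.38-fold to 1.81-fold higher. Cyp1b1 was lower, at 0.0901 ± 0.0722 against 0.397 ± 0.287 CPM (SD, n = 16), a 3.99-fold difference (adjusted p = 2.2e-06, edgeR). With the animal as a block, 25 members were higher and 2 lower (Cyp1b1 and Cyp2c39), where 69.6% of all genes were called (41.4% higher, 28.2% lower). In that fit Cyp2e1, Cyp3a25 and Cyp2f2 were higher in hepatocyte nuclei by 0.20, 0.19 and 0.23, and Cyp2c39 lower by -0.26 on the log2 scale.

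**Figure D5:**
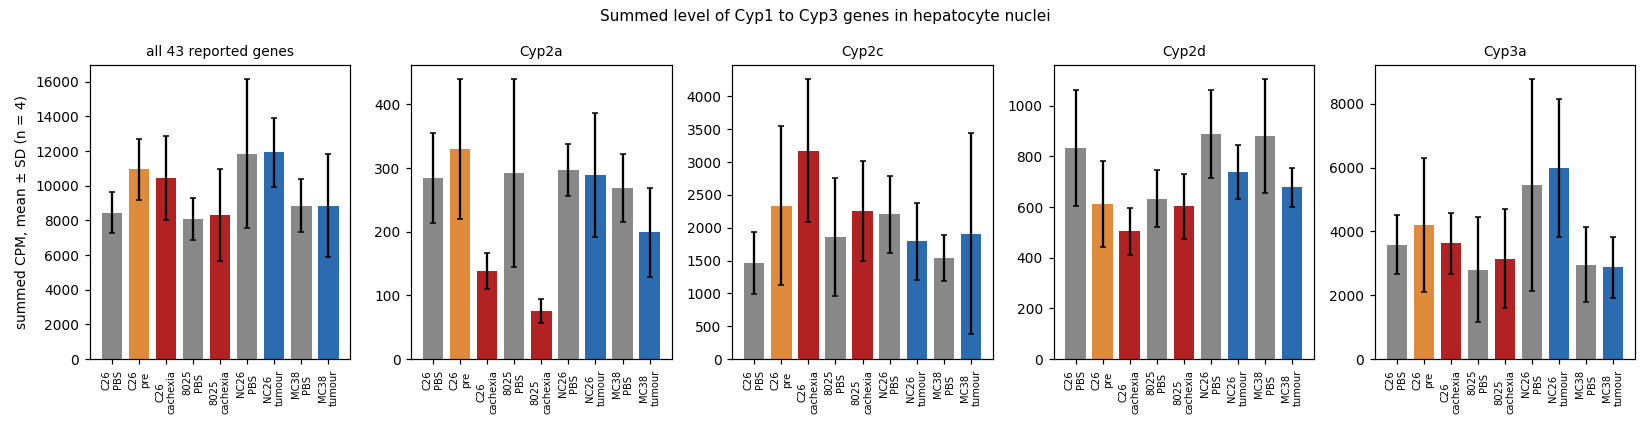
Summed CPM of all reported members and of the Cyp2a, Cyp2c, Cyp2d and Cyp3a subfamilies in hepatocyte nuclei, mean ± SD of 4 animals in each of 9 groups. The Cyp2a sum is lowest in both cachexia groups (138 and 76.0 CPM), while the sum of all members stays between 8095 and 11924 CPM.

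Genes that serve these enzymes were followed in lists, again beside 22.2% of all genes called in C26 and 29.3% in 8025 cachexia. Of 5 electron transfer genes in hepatocyte nuclei, 1 rose and 2 fell in C26 cachexia, and 0 rose and 3 fell in 8025 (median log2 fold changes -0.48 and -0.73). Por, the reductase, rose from 323 to 654 CPM in C26 (log2 fold change 1.02, adjusted p = 0.010, edgeR), and the cytochrome b5 gene Cyb5b fell in both models (-0.76 and -0.94). Of 8 haem synthesis genes, 0 rose and 1 fell in C26 and 1 rose and 2 fell in 8025 (medians -0.18 and -0.26). Alad fell in C26 (-1.63, adjusted p = 1.3e-04), and Alas1, the rate-limiting enzyme, fell in 8025 (-1.87, adjusted p = 0.0041). Of 17 receptors and transcription factors, 1 rose and 3 fell in C26, and 1 rose and 4 fell in 8025 (medians -0.14 and -0.09). The shares of called genes among receptors and factors are near those of all genes, and the C26 share of the haem list is below it. Single genes of the lists are given as values. The growth hormone receptor Ghr fell in both models (-1.09 and -1.19), as did Cebpa (-1.20 and -1.68). Cux2, a female-predominant liver repressor, rose from 10.9 to 559 CPM in C26 (adjusted p = 9.9e-04), and Bcl6, a male-predominant repressor, fell (-1.88, adjusted p = 0.044). Ahr rose in 8025 from 78.9 to 213 CPM (log2 fold change 1.43, adjusted p = 4.4e-05). The receptors Nr1i2, Nr1i3 and Rxra were called in neither model.

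Start-site sequences were found in RefSeq for 38 of the 43 members. Motifs were searched on both strands of 260 bases and counted separately, also where they overlap. TATAAA was in 20 of the 38 (52.6%) and in 12.7% of 32851 RefSeq promoters. AGGTCA was in 10 (26.3%, against 14.5%) and GTTAAT, part of the HNF1 site, in 6 (15.8%, against 6.57%). In C26 cachexia, members with AGGTCA rose (Cyp2b9, Cyp2c70 and Cyp3a44), fell (Cyp2c29, Cyp2f2 and Cyp3a11) or were not called. Members without it also rose (as Cyp2c38, Cyp2c39 and Cyp3a13) and fell (as Cyp1a2, Cyp2a12, Cyp2a5 and Cyp2c55). GCGTG, the core of the aryl hydrocarbon receptor site, was in 5 (13.2%, against 29.1%) and not in the Cyp1a2 window. TTCNNNGAA, the STAT5 core, was in 0 members (7.33% of all promoters) and TTGCGCAA, a C/EBP site, in 0 (0.17%). Members that share a cluster also share sequence, so these are descriptions of the set.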

How the data were processed

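Liver nuclei of 36 mice were counted in 72 libraries, 1 of bead-bound hepatocyte nuclei and 1 of whole liver nuclei per animal. Nuclei left in the supernatant were not analysed here. The labels' protocols give total RNA, stranded libraries without poly-A selection and paired 50-base reads. The submitters' processing notes name STAR 2.4.2a, DESeq2 1.24.0 and mm10, with no role stated for DESeq2. The deposited values are raw read counts per gene, which per the file headers cover whole gene spans, introns included; the read counter is not given in the sources used here.

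From these counts, genes with low counts were removed by group with edgeR's filterByExpr, which left 13274 genes in hepatocyte and 13738 in whole liver nuclei, and 14054 in both together. Library sizes were scaled by TMM factors (0.900 to 1.14), and CPM use these sizes. A quasi-likelihood fit over all 36 libraries of a fraction (edgeR 4.0.16, limma 3.58.1, R 4.3.3) gave each contrast, with Benjamini-Hochberg adjustment over all genes tested and calls at adjusted p under 0.05. The fractions were compared in 1 fit over 72 libraries. Animals link the fractions: deviations of both libraries of an animal correlated at -0.27 to 0.81, and 14 of 16 correlated best with their own animal. The fit was tested on simulated counts. Full values were given for the highest member of each subfamily at 5 CPM or more, the 5 highest and 5 lowest called members at 5 CPM or more in each tumour comparison and between strains, and members at least 2-fold lower in hepatocyte nuclei. The members, marker lists, receptor lists and partner lists were chosen with earlier results of these data known. Alternatives were DESeq2 1.42.0, its size factors, no filter, no rRNA-like genes, a replicate block, fits of the compared cohorts alone and leaving out each animal.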

Additional observations from a re-analysis of the deposited data

Results flagged for a closer look

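Members with full values in hepatocyte nuclei were checked in 208 groups of 4 animals. In 17 (8.17%) the highest or lowest animal was set apart from the other animals by most of the group's range. Chance alone flags about 1 in 20 groups of normally distributed values. The values here were CPM without a log, so that rate may not apply. No library held more than 2 of the 17 flags.

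In control and tumour groups without cachexia, Cyp1a2 was at 48.5 CPM in 8025 PBS animal 1 (others 29.8 to 31.5) and at 18.1 CPM in MC38 tumour animal 2 (others 36.7 to 39.0). Cyp2b9 was at 10.6 CPM in MC38 tumour animal 1 (others 0.199 to 0.560), and Cyp2c38 at 80.7 CPM in MC38 tumour animal 4 (others 314 to 348). Cyp2c67 was at 682 CPM in C26 PBS animal 4 (others 78.8 to 165) and 419 CPM in NC26 tumour animal 3 (others 179.9 to 197). Cyp2d9 was at 109 CPM in 8025 PBS animal 3 (others 212 to 229), Cyp2j5 at 617 CPM in NC26 tumour animal 2 (others 810.4 to 834), and Cyp3a59 at 111 CPM in MC38 PBS animal 1 (others 31.6 to 35.5).

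In C26 pre-cachexia, animal 4 stood apart in Cyp2b9 (25.4 CPM, others 0.405 to 4.08) and Cyp2c37 (30.2 CPM, others 9.00 to 11.4), animal 1 in Cyp2d40 (45.1 CPM, others 18.1 to 19.3), animal 3 in Cyp2f2 (296 CPM, others 189.8 to 196) and animal 2 in Cyp2u1 (51.2 CPM, others 21.0 to 21.1). In cachexia, Cyp3a44 was at 29.0 CPM in C26 animal 4 (others 0.290 to 2.80), Cyp2a5 at 43.3 CPM in 8025 animal 4 (others 21.6 to 22.7), and Cyp2c38 at 1345 CPM in 8025 animal 1 (others 721 to 773).

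In 7 cases a member passed a test of the difference between tumour effects (edgeR, differences on the log2 scale). C26 and 8025 differed by 1.38 in Cyp2f2, where 52 of 13274 genes were higher and 75 lower. C26 and NC26 differed by -2.70 in Cyp1a2, 2.55 in Cyp2c39 and -2.22 in Cyp2u1, where 124 genes were higher and 127 lower. 8025 and MC38 differed by -2.23 in Cyp2a5, -1.87 in Cyp2f2 and 1.77 in Cyp3a13, where 556 genes were higher and 401 lower. Of these, only Cyp2f2 and Cyp3a13 in the last comparison kept their calls whenever 1 animal was left out, as given above.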

How the results depend on the processing

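No member's log2 fold change that was called changed sign under any alternative: of 1392 values without 1 animal, 1188 stayed called and 204 did not, and of 845 under the other alternatives, 789 stayed called and 56 did not. The cause of lost calls was not tested. Counts of called members without 1 animal were 16 to 20 (21 with all animals) for hepatocyte C26 cachexia, 11 to 13 (13) for 8025, 1 to 3 (3) for pre-cachexia, 5 to 14 (12) for cachexia against pre-cachexia, 0 to 1 (0) for NC26, 0 to 1 (1) for C26 against 8025, 0 to 4 (3) for C26 against NC26, 2 to 4 (3) for 8025 against MC38, 20 to 25 (23) for strain and 6 to 9 (6) for the fractions. C26 against NC26 had 0 without cachectic animal 3. In whole liver they were 2 to 4 (2) for pre-cachexia, 6 to 13 (12) for cachexia against pre-cachexia and 0 to 1 (0) for NC26, where Cyp2r1 was called without tumour animal 2. Whole liver pre-cachexia had 4 without pre-cachexia animal 2, and cachexia against pre-cachexia 6 without cachectic animal 4 or pre-cachexia animal 2.

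DESeq2's Wald test called 1 member for NC26 (Cyp2r1), 6 for C26 against NC26, 5 for 8025 against MC38 and 7 for whole liver pre-cachexia. With only the cohorts compared in the fit, 1 member was called for pre-cachexia, 6 for cachexia against pre-cachexia, 0 for C26 against 8025 and 6 for whole liver pre-cachexia. C26 PBS against 8025 PBS animals alone gave 15 strain calls, and PBS libraries alone gave 10 calls between fractions.

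With the replicate number as a block, 1 member was called for pre-cachexia, 2 for C26 against 8025 (Cyp2f2 and Cyp2a4), 5 for 8025 against MC38 and 4 for whole liver pre-cachexia, 20 for C26 cachexia and 13 for 8025 cachexia. In no tumour comparison did all 4 same-numbered pairs correlate over 0.1 (from -0.36 to 0.47 over all comparisons), and the labels state no pairing. In hepatocyte pre-cachexia 3 of 4 pairs did (0.053 to 0.47), and under the block Cyp2c70 (2.54, adjusted p = 0.079, edgeR) and Cyp2d11 (-1.84, adjusted p = 0.056) were not called there. With the animal as the replicate block, 27 members differed between fractions. Depth limits members near 1 CPM, such as Cyp1b1 and Cyp2d11, which rest on few counts.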
